A study of Drosophila melanogaster with 4 samples.

Results

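The troponin and tropomyosin genes of muscle in the fly head, namely *TpnC25D*, *TpnC41C*, *TpnC47D*, *TpnC73F*, *TpnC4*, *up*, *wupA*, *Tm1* and *Tm2*, were taken as a named list from the 13608 gene identifiers of the count table, and all 9 were found by their FlyBase symbol. The libraries were made by 3′-seq, which reads polyadenylated RNA from the end of the transcript, from heads of untreated adult *Drosophila melanogaster* labelled wild type, in 4 replicates. There is 1 condition, so no difference between groups could be tested. The labels name only replicates, without age, sex or number of flies, and the series record speaks of independent wild-type lines, so the spread between replicates may hold differences between lines as well as technical ones. The study's general wild type is *w1118*, and by its methods the RNA came from head powder that had been cross-linked with ultraviolet light.

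Contraction of striated muscle is switched on at the thin filament. Tropomyosin lies along the actin filament, and each tropomyosin dimer carries a troponin complex made of troponin T, which anchors the complex to tropomyosin, troponin I, which holds the filament in the off state, and troponin C, the calcium sensor. Calcium binding to troponin C releases the block and lets myosin act on actin. The fly has single genes for troponin T (*up*, *upheld*) and troponin I (*wupA*, *wings up A*), a pair of tropomyosin genes (*Tm1* and *Tm2*), and a family of troponin C genes that differ in the muscles in which they are used. The adult fly head is mostly brain and eye, but it also holds the muscles that move the proboscis, the pharynx and the antennae.

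Levels are counts per 1000000 counts on genes of the same library (CPM). A transcript gives reads at its end only, so the count of a gene does not grow with its length, and levels of different genes are set side by side per transcript end on the CPM scale. Reads were mapped without introns, so a read that crosses the last splice junction may be lost. How far this differs between genes was not tested, and it limits the levels, shares and ratios that compare genes. In bulk RNA of whole heads, fewer muscle cells and less RNA per muscle cell cannot be told apart. The libraries held 8753359 (replicate 3) to 13434565 (replicate 1) counts on genes, so that 1 count was worth 0.0744 to 0.114 CPM. The 95% Wilson intervals given for single libraries cover only the counting error of reads. The reads carry no molecular identifiers, so copies of one molecule may be counted more than once and the intervals may be too narrow.

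A pair of libraries stood apart in ways that touch these genes. Replicate 1 held far more of some genes that are not expected in heads, namely those of the male accessory gland and the midgut. Of the 11 listed male accessory gland genes, 10 were in the table and summed to 724, 8.09, 19.9 and 189 CPM in replicates 1 to 4. The 13 midgut genes summed to 1056, 146, 195 and 213 CPM. The midgut list was uneven: *Amy-d* stood at 0.482 of the mean of the others in replicate 1, whereas every other gene of the list was above that mean. The summed eggshell genes of the ovary, also not expected in heads, were not high in replicate 1, at 0.633 of the mean of the others. Markers of indirect flight muscle, a thoracic tissue, went with the accessory gland and midgut sums. *fln* (flightin, a thick-filament protein of flight muscle) had 175, 0, 0 and 18 counts in replicates 1 to 4, and *Act88F*, the flight muscle actin, had 283, 35.4, 6.74 and 38.3 CPM. Replicate 3, in turn, was low in many but not all muscle genes. The 6 neuronal genes summed to 4660 CPM there, against 2627 to 3250 CPM in the others, a difference carried by *para*, *Rdl* and *nSyb*, while *elav* and *Syt1* stood at 1.06 and 1.08 and *brp* at 0.753 of the mean of the others. The 8 photoreceptor genes, abundant in every library at 29212 to 39403 CPM, did not set replicate 3 apart. Results below are therefore given with and without these libraries where they move.

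**Figure D1:**
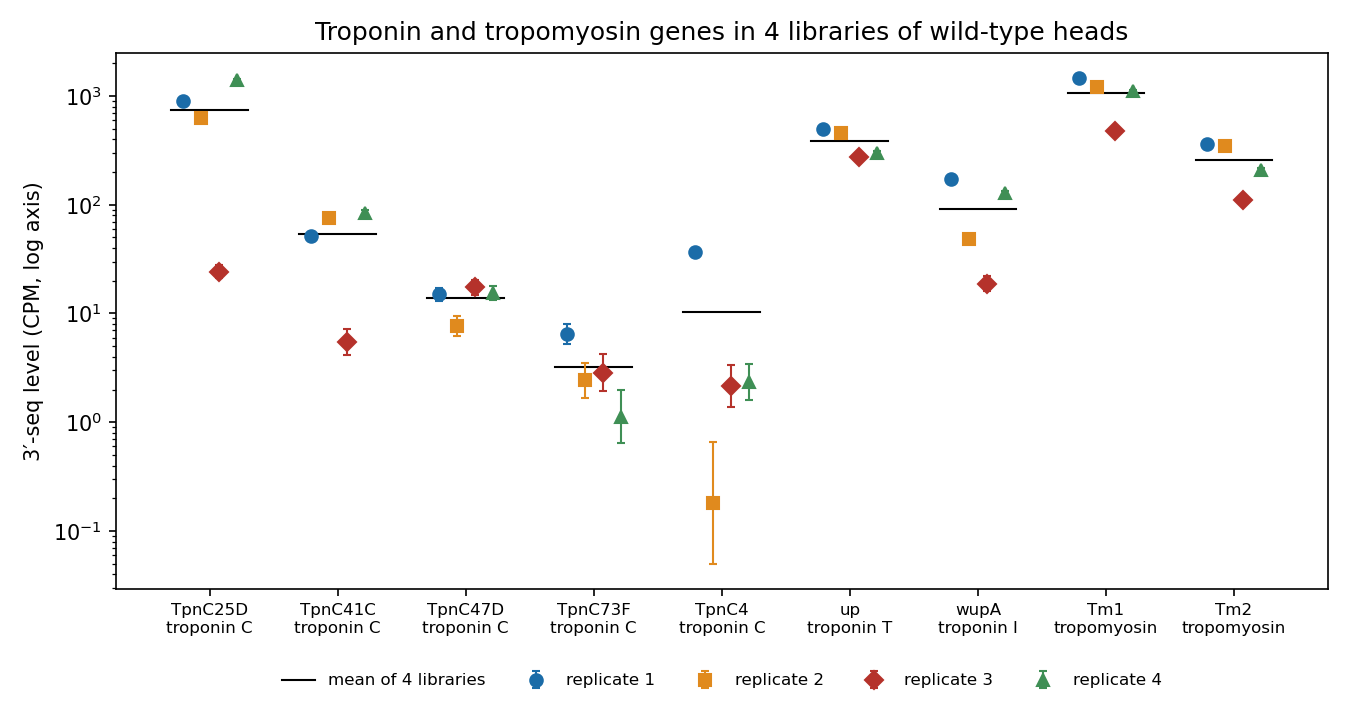
Level of each troponin and tropomyosin gene (CPM, log axis) in the 4 libraries of wild-type heads, with 95% Wilson intervals as error bars and the mean of the 4 libraries as a black line. *Tm1* lies between 480 and 1462 CPM, *TpnC25D* is at 24.2 CPM in replicate 3, and *TpnC4* reaches 36.8 CPM in replicate 1 only.

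Of the 9 genes, 8 were counted 10 times or more in each library, against 57.0% of all genes in the table. The exception was *TpnC4*, with 2 counts in replicate 2. Among the 7754 genes that passed this minimum, the median of the mean levels was 25.4 CPM and 18.0% had a mean of at least 100 CPM. Of the 8 thin-filament genes that passed, 4 had such a mean, namely *Tm1*, *TpnC25D*, *up* and *Tm2*. *Tm1* was the most abundant by its mean, at rank 177 of the 13608 genes, and *TpnC73F* the least, at rank 7980.

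*TpnC25D* (FBgn0031692, chromosome 2L, 5216701 to 5219053 on the plus strand of dm6) was the main troponin C gene of these heads. It had 12046, 6936, 212 and 14990 counts in replicates 1 to 4, or 897, 624, 24.2 and 1404 CPM. Replicate 3 lay far below the others, and its interval of 21.2 to 27.7 CPM was nowhere near theirs. The mean was 737 ± 575 CPM (SD, n = 4), and 975 ± 396 CPM over the 3 libraries other than replicate 3. Replicate 3 stood at 0.0249 of the mean of the others. Only 2 of the 7754 genes had a lower ratio, and of the 1392 of them averaging 100 CPM or more, 0.575% were under 0.1 in that library. *TpnC25D* was singled out for this after its values had been seen. All 7754 genes had at least 10 counts in replicate 3 as well, so genes that fell below this there are missing from the ranking. Without replicate 3 the same minimum kept 8344 genes.

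*TpnC41C* (FBgn0013348, chromosome 2R, 5065237 to 5070210, minus strand), a form known from jump and flight muscles of the adult, followed *TpnC25D* at a lower level. It had 51.2, 74.9, 5.48 and 83.5 CPM in replicates 1 to 4. Here, too, replicate 3 was the low library, at 48 counts. The mean was 53.8 ± 35 CPM (SD, n = 4), and 69.9 ± 16.7 CPM without replicate 3. Within each library *TpnC25D* was above *TpnC41C*, by 17.5, 8.33, 4.42 and 16.8 times in replicates 1 to 4. The mean log2 ratio was 3.35 ± 0.94 (SD, n = 4; exact sign-flip permutation test, two-sided, p = 0.13). This is the smallest p that 4 libraries allow, so it says only that all 4 had the same order.

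*TpnC47D* (FBgn0010423, chromosome 2R, 11273845 to 11275286, minus strand) was not low in replicate 3. It had 15.0, 7.73, 17.4 and 15.4 CPM in replicates 1 to 4. Replicate 3 was its highest library and replicate 2 its lowest, with intervals of 14.8 to 20.4 CPM and 6.26 to 9.55 CPM. The interval of replicate 3 overlapped those of replicates 1 and 4, at 13.1 to 17.3 CPM and 13.2 to 17.9 CPM. The mean was 13.9 ± 4.22 CPM (SD, n = 4). *TpnC47D* and *TpnC73F* are known as troponin C genes of larval body wall muscle that stay in use in some adult muscles.

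*TpnC73F* (FBgn0010424, chromosome 3L, 17046063 to 17048390, plus strand) was the least abundant by its mean, with 87, 27, 25 and 12 counts in replicates 1 to 4. Its levels were 6.48, 2.43, 2.86 and 1.12 CPM. The interval of replicate 1 lay above those of the others, and the intervals of replicates 2, 3 and 4 overlapped one another. The mean of 3.22 ± 2.29 CPM (SD, n = 4) became 2.14 ± 0.90 CPM without replicate 1.

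*TpnC4* (FBgn0033027, chromosome 2R, 5503437 to 5507866, minus strand) encodes the troponin C of indirect flight muscle that serves stretch activation. It had 494 counts in replicate 1 and 2, 19 and 25 counts in replicates 2, 3 and 4. These were 36.8 CPM in replicate 1, against 0.180 CPM (95% Wilson interval 0.0493 to 0.656), 2.17 CPM and 2.34 CPM. Replicate 1 thus held most of its counts, at 23.5 times the mean of the others, a ratio above 10 that 3.02% of the 9532 genes averaging 10 counts or more also had. Its mean of 10.4 CPM over the 4 libraries was 1.56 ± 1.2 CPM without replicate 1. The flight muscle markers moved with it: *fln* stood at 23.2 and *Act88F* at 10.5 times the mean of the others in replicate 1, beside the accessory gland and midgut genes given above. Their part in the level of *TpnC4* was not tested.

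**Figure D2:**
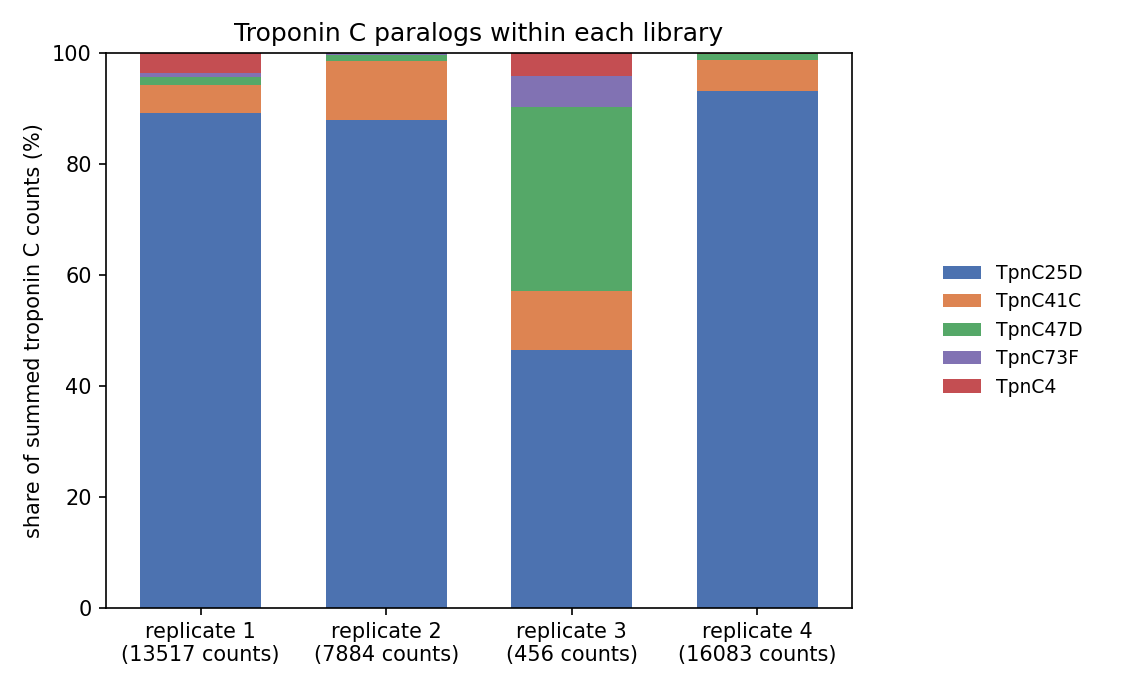
Share of each troponin C gene in the summed troponin C counts of a library (percent, stacked bars from 0 to 100), with the number of counts under each bar. *TpnC25D* takes 88.0% to 93.2% in replicates 1, 2 and 4 and 46.5% in replicate 3, where *TpnC47D* takes 33.3%.

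The make-up of the troponin C pool can be read within each library, free of the scaling. *TpnC25D* made up 89.1% of the 13517 troponin C counts of replicate 1 (95% Wilson interval 88.6% to 89.6%), 88.0% of the 7884 counts of replicate 2 (87.2% to 88.7%) and 93.2% of the 16083 counts of replicate 4 (92.8% to 93.6%). In replicate 3 it made up 46.5% of only 456 counts (42.0% to 51.1%). The pool of replicate 3 was both small and differently composed. *TpnC47D* held 33.3% of it (29.2% to 37.8%), against 1.49%, 1.09% and 1.02% in replicates 1, 2 and 4, and *TpnC73F* held 5.48% (3.74% to 7.97%), against 0.644%, 0.342% and 0.0746%. The counts of *TpnC47D* themselves were 202, 86, 152 and 164 in replicates 1 to 4, so its high share in replicate 3 went with a low count of *TpnC25D*, at 212.

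The share of *TpnC41C* was 5.09%, 10.6%, 10.5% and 5.55% in replicates 1 to 4. Its share in replicate 3 was within the interval of that in replicate 2. *TpnC4* held 3.65%, 0.0254%, 4.17% and 0.155% in the same order, high in replicate 3 on 19 counts of a small pool and in replicate 1 on 494 counts of a large one. Over the 4 libraries, weighted equally, the mean shares were 79.2 ± 21.9% for *TpnC25D*, 9.23 ± 16.1% for *TpnC47D*, 7.93 ± 3.02% for *TpnC41C*, 2.0 ± 2.22% for *TpnC4* and 1.64 ± 2.57% for *TpnC73F* (SD, n = 4). Without replicate 3 they were 90.1% for *TpnC25D*, 7.07% for *TpnC41C*, 1.28% for *TpnC4*, 1.2% for *TpnC47D* and 0.354% for *TpnC73F*. Replicate 3 therefore decided whether *TpnC47D* or *TpnC41C* came second by the mean.

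The ratio of *TpnC25D* to *TpnC47D* showed the contrast most directly. It was 59.6, 80.7, 1.39 and 91.4 in replicates 1 to 4. *TpnC25D* was the higher gene in all 4 libraries, yet in replicate 3 the 2 counts were close to each other. *TpnC41C* was below *TpnC47D* in replicate 3 alone, with ratios of 3.41, 9.69, 0.316 and 5.44 in replicates 1 to 4 (mean log2 ratio 1.46 ± 2.17, SD, n = 4; exact sign-flip permutation test, two-sided, p = 0.25).

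Troponin T and troponin I, the other parts of the complex, had different patterns. *up* (FBgn0004169, chromosome X, 13593474 to 13602578, minus strand) had 493, 461, 272 and 301 CPM in replicates 1 to 4. Replicates 3 and 4 were the low ones, and the highest library was 1.81 times the lowest, the narrowest range of the 9 genes. The mean was 382 ± 111 CPM (SD, n = 4). *wupA* (FBgn0283471, chromosome X, 18105568 to 18116922, minus strand) had 171, 48.5, 18.8 and 128 CPM. Its replicates 1 and 4 were high and replicates 2 and 3 low, and the mean was 91.6 ± 70.3 CPM (SD, n = 4). The intervals of the 4 libraries did not overlap.

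Troponin T counts were above troponin I counts in every library, by 2.88, 9.50, 14.4 and 2.36 times in replicates 1 to 4 (mean log2 ratio 2.46 ± 1.28, SD, n = 4; exact sign-flip permutation test, two-sided, p = 0.13). The summed troponin C genes were also above troponin I in every library, by 5.87, 14.6, 2.76 and 11.8 times (mean log2 ratio 2.86 ± 1.09, SD, n = 4; exact sign-flip permutation test, p = 0.13). Troponin C against troponin T had no fixed order. The ratio was 2.04, 1.54, 0.191 and 5.0 in replicates 1 to 4, and its mean log2 of 0.40 ± 1.99 (SD, n = 4; exact sign-flip permutation test, two-sided, p = 0.75) was smaller than its spread. By these counts troponin I was the lowest of the 3 subunits in every library, and the ratios between subunits varied between libraries.

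*Tm1* and *Tm2* are neighbours on chromosome 3R, in the same direction and 1413 bp apart. *Tm1* (FBgn0003721, 15278220 to 15308779) encodes muscle tropomyosins and also cytoplasmic forms, including a form that takes part in *oskar* mRNA transport in the oocyte. *Tm2* (FBgn0004117, 15310193 to 15315197) is the other muscle tropomyosin gene. *Tm1* had 1462, 1197, 480 and 1113 CPM in replicates 1 to 4, a mean of 1063 ± 416 CPM (SD, n = 4). *Tm2* had 359, 347, 111 and 210 CPM, a mean of 257 ± 118 CPM (SD, n = 4). In both genes replicate 3 was low and replicate 1 high.

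Of the ratios between members given here, theirs had the smallest range. *Tm1* exceeded *Tm2* by 4.07, 3.45, 4.31 and 5.30 times in replicates 1 to 4, a mean log2 ratio of 2.08 ± 0.25 (SD, n = 4; exact sign-flip permutation test, two-sided, p = 0.13). *Tm1* made up 80.8 ± 2.71% of the tropomyosin counts (SD, n = 4). Replicate 3, at 81.2% (95% Wilson interval 80.1% to 82.2%), overlapped with replicate 1, at 80.3% (79.8% to 80.8%), although its tropomyosin total was 591 CPM against 1822 CPM there. In replicates 2 and 4 the share was 77.6% (76.9% to 78.2%) and 84.1% (83.5% to 84.7%), outside the interval of replicate 3 on either side. The share of *Tm1* in replicate 3 thus lay within the range of the other libraries, whereas that of *TpnC25D* in troponin C lay far outside it. The summed tropomyosin counts were above those of troponin T by 3.70, 3.35, 2.17 and 4.39 times (mean log2 ratio 1.72 ± 0.43, SD, n = 4; exact sign-flip permutation test, p = 0.13).

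In the order of the means, *Tm1* came first, followed by *TpnC25D*, *up*, *Tm2*, *wupA*, *TpnC41C*, *TpnC47D*, *TpnC4* and *TpnC73F*. Of the 36 pairs of genes, 29 had the same order in all 4 libraries and 7 did not. Among neighbours in this order, *up* was above *Tm2* and *Tm2* above *wupA* in 4 of 4 libraries. *Tm1* was above *TpnC25D*, *TpnC25D* above *up*, *wupA* above *TpnC41C*, *TpnC41C* above *TpnC47D* and *TpnC47D* above *TpnC4* in 3 of 4 libraries each, and *TpnC4* above *TpnC73F* in 2 of 4. These 6 neighbours were not separated by their levels.

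Replicate 3 was the lowest library for 6 of the 8 genes with at least 10 counts throughout, against 43.7% of all 7754 such genes, and it was under 0.5 of the mean of the others for 5 of the 8, against 22.8%. The 5 were *TpnC25D* at 0.0249, *TpnC41C* at 0.0785, *wupA* at 0.163, *Tm2* at 0.365 and *Tm1* at 0.381. *up* stood at 0.651, *TpnC73F* at 0.855 and *TpnC47D* at 1.37. The median of the 8 was 0.373, beside a median of 0.794 over all 7754 genes. Replicate 3 and the cut of 0.5 were chosen after these levels had been seen, so the counts describe the 8 genes and test nothing. The minimum of 10 counts held in replicate 3 too, so genes below it there are missing from the shares over all genes. Scaling moved the background: under TMM the counts of replicate 3 shifted up by 0.20 on the log2 scale, 5 of the 8 genes and 33.0% of all genes were lowest there, and 5 of the 8 and 15.6% of all were under 0.5. *TpnC73F* then stood at 1.05, no longer below the others.

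**Figure D3:**
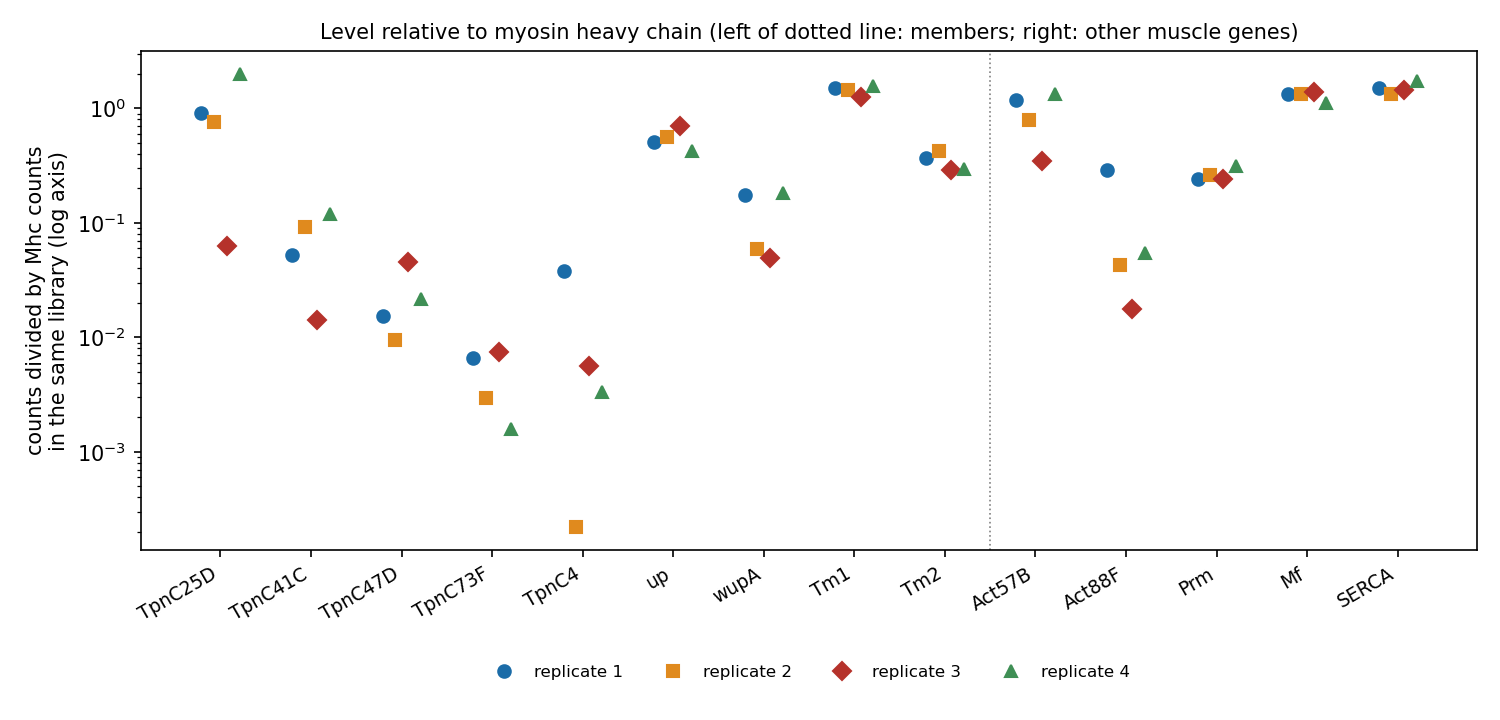
Counts of each gene divided by the counts of *Mhc* in the same library (log axis), members left of the dotted line and 5 other muscle genes right of it. *Tm1*, *Prm*, *Mf* and *SERCA* keep a narrow band in all 4 libraries, while in replicate 3 *TpnC25D* is at 0.0629 and *TpnC47D* at 0.0451.

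To set the members against another muscle gene, their counts were divided by those of *Mhc*, the gene of muscle myosin heavy chain, in the same library. *Mhc* is a single gene and not a measure of all muscle. This measure was chosen after the values had been seen. *Mhc* itself had 976, 820, 385 and 706 CPM in replicates 1 to 4 and was lowest in replicate 3. *Tm1* followed it closely, at 1.5, 1.46, 1.25 and 1.58 of the *Mhc* count, an SD of 0.15 on the log2 scale. *Tm2* stood at 0.368, 0.422, 0.289 and 0.298 and *up* at 0.505, 0.561, 0.707 and 0.427, with SDs of 0.26 and 0.30. These 3 genes varied less against *Mhc* than the other 6 members.

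The troponin C genes and *wupA* varied more. *TpnC25D* was at 0.919, 0.760, 0.0629 and 1.99 of the *Mhc* count in replicates 1 to 4, and in replicate 3 this log2 ratio differed from the mean of the others by -4.15. *TpnC41C* was at 0.0525, 0.0913, 0.0142 and 0.118, and *wupA* at 0.176, 0.0591, 0.0490 and 0.181. *TpnC47D* was highest in replicate 3, at 0.0154, 0.00942, 0.0451 and 0.0218. Other muscle genes split likewise. *Act57B*, an actin of body wall muscle, stood between 0.788 and 1.33 in replicates 1, 2 and 4 and at 0.349 in replicate 3. *Prm* (paramyosin of the thick filament) stood between 0.240 and 0.312, *Mf* (myofilin, also of the thick filament) between 1.12 and 1.40, and *SERCA*, the calcium pump of the sarcoplasmic reticulum, between 1.33 and 1.73 in all 4 libraries. *Mlc2*, the regulatory myosin light chain, stood at 3.92, 9.35, 14.7 and 4.03, highest in replicate 3. *Mlp60A* and *Zasp66* were also highest there, at 3.04 against 1.20 to 1.66 and at 0.767 against 0.348 to 0.393. *Actn* and *tmod* were lowest there, at 0.0493 against 0.0612 to 0.0936 and at 0.0178 against 0.0297 to 0.0390.

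The spread between replicates beyond counting noise was taken as the biological coefficient of variation that edgeR estimated across the 7754 genes. It was 0.760 for *TpnC25D*, 0.608 for *TpnC41C*, 0.541 for *wupA* and 0.538 for *TpnC73F*, and 0.402 for *TpnC47D*, 0.397 for *Tm2*, 0.363 for *Tm1* and 0.333 for *up*. The value common to all these genes was 0.403. Of these 7754 genes, 99.5% had a smaller coefficient than *TpnC25D* and 26.3% a smaller one than *up*. Without replicate 3 the coefficient of *TpnC25D* was 0.328 and that of *TpnC41C* 0.316, so their large spread rested on that library. *TpnC4* missed the count minimum, and in a fit to the 9532 genes averaging 10 counts or more its coefficient was 1.13. In that wider fit, which takes in genes near 0 in some libraries, *TpnC25D* stood at 0.804 with 79.8% of the genes below it, *TpnC73F* at 0.817 with 80.4% below it and *up* at 0.332 with 19.1% below it. *TpnC25D* therefore stood out among well-counted genes but much less among all 9532.

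The actins that tropomyosin and troponin cover were present at a like level. The 4 muscle actin genes *Act57B*, *Act79B*, *Act87E* and *Act88F* summed to 1.0, 1.12, 0.787 and 1.16 times the tropomyosin counts in replicates 1 to 4, and the mean log2 ratio of 0.01 ± 0.25 (SD, n = 4; exact sign-flip permutation test, two-sided, p = 0.875) was within its spread. *Act57B* had 1160, 646, 134 and 941 CPM. *Act79B*, an actin of tubular muscles such as those of the legs and the jump muscle, had 94.8, 661, 167 and 320 CPM, highest in replicate 2. *Act87E* had 310, 392, 156 and 235 CPM. *Act5C*, a cytoplasmic actin of all cells, varied less, at 654, 625, 419 and 750 CPM.

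Of the 23 sarcomere genes listed, 21 were matched in the table and 19 had at least 10 counts in every replicate. The median of their mean levels was 101 CPM. *Mlc2* was the highest, at 5002 ± 2129 CPM, followed by *Mlp60A* (a muscle LIM protein) at 1145 ± 218 CPM, *Mf* at 930 ± 333 CPM and *Mhc* at 722 ± 250 CPM (SD, n = 4). Replicate 3 was the lowest library for 13 of the 19, against 43.7% of all detected genes. The summed list was not lowest there, at 9233, 12545, 8926 and 6757 CPM in replicates 1 to 4. *Mlc2*, *Mlp60A* and *Zasp66*, a Z-disc protein gene, stood at 1.19, 1.03 and 0.965 of the mean of the others in replicate 3. Of the 11 calcium handling genes, 9 were matched and 8 passed the minimum, led by *SERCA* at 1087 ± 389 CPM, *Ca-alpha1T* (a calcium channel also used in neurons) at 260 ± 44.3 CPM, *RyR* (the ryanodine receptor that releases calcium) at 48.8 ± 27.4 CPM and *Calx* (the sodium-calcium exchanger) at 44.2 ± 22.8 CPM. *SclA*, which encodes a small peptide regulator of *SERCA*, had 0 counts in every library, which allows up to 0.223 CPM in replicate 1 and 0.343 CPM in replicate 3. *Cam*, calmodulin, the calcium sensor related to troponin C that all cells use, had 3587, 2825, 1682 and 3644 CPM and was thus above the summed troponin C genes, at 1006, 709, 52.1 and 1506 CPM, in each library.

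Of 13 regulators of muscle development and splicing, all matched, 9 passed the minimum. The sum of the 13 varied little, at 605, 502, 536 and 469 CPM. *hth* (154 ± 21.9 CPM), *bru1* (152 ± 15.5 CPM), a splicing factor of flight muscle, *Mef2* (91.6 ± 11.5 CPM, SD, n = 4), a main activator of muscle genes, and *mys* (32.4 ± 11.6 CPM), an integrin subunit at muscle attachments, were the highest. *Mef2* had 104, 86.5, 97.7 and 78.3 CPM in replicates 1 to 4. In replicate 3 it was not low, unlike *TpnC25D*, *Tm1* and *Mhc*. The list was uneven there: replicate 3 was the lowest library for 4 of the 9 regulators, beside 43.7% of all detected genes. These were *how* at 0.442, *if* at 0.452, *exd* at 0.568 and *Chi* at 0.742 of the mean of the others. *Mef2*, *hth* and *bru1* are also used in neurons, so their levels in whole heads are not a measure of muscle alone.

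**Figure D4:**
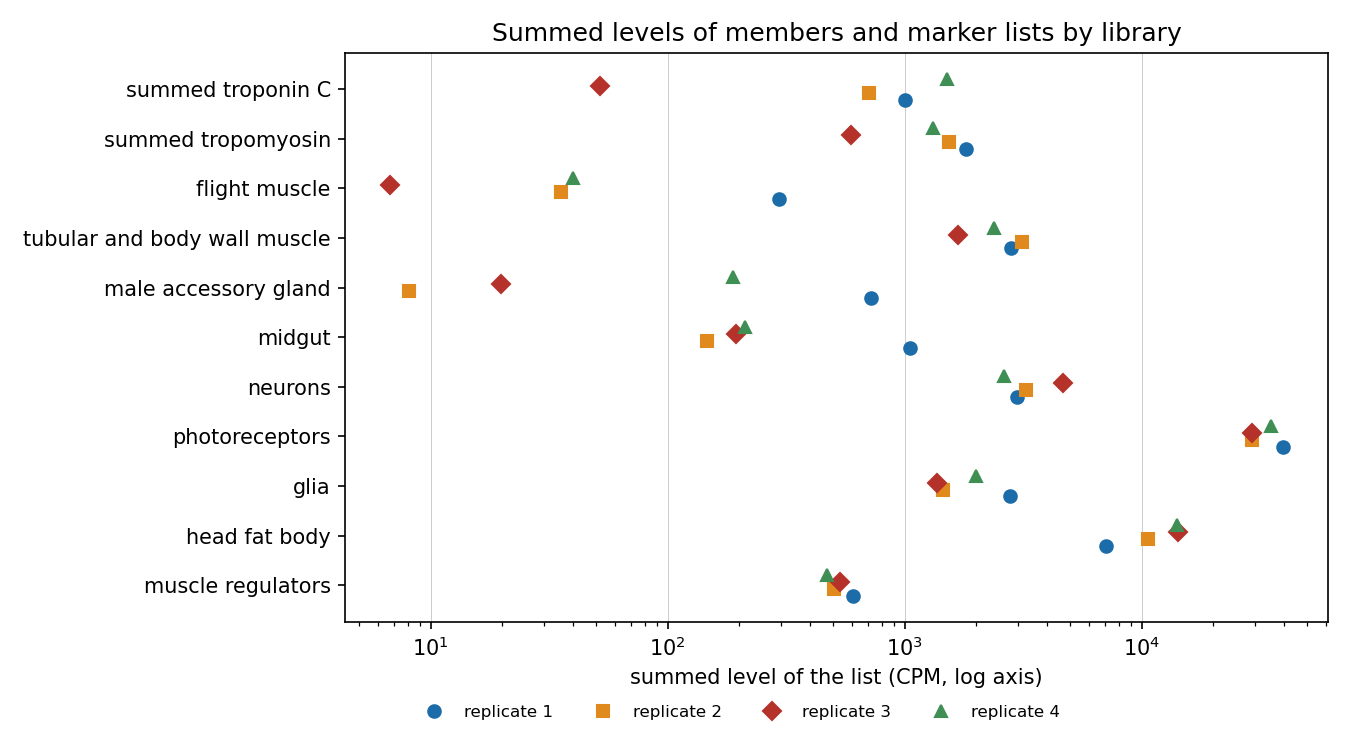
Summed level (CPM, log axis) of the troponin C and tropomyosin genes, of the marker lists other than ovary and of the muscle regulators in each library. Replicate 1 is highest for flight muscle, accessory gland and midgut genes, and replicate 3 is lowest for troponin C, at 52.1 CPM, and tropomyosin, at 591 CPM, but highest for the summed neuronal genes, at 4660 CPM.

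The tubular and body wall muscle list summed to 1676 CPM there, against 2823, 3127 and 2389 CPM in replicates 1, 2 and 4, with 3 of its 5 genes lowest in replicate 3 where 43.7% of all detected genes were. The 4 glial genes summed to 1375 CPM, against 1453 to 2782 CPM, close to replicate 2, and the list was uneven. Replicate 3 was lowest for 3 of the 4, beside 43.7% of all detected genes, with *repo* at 0.470 and *Gs2* at 0.619 of the mean of the others. *alrm*, a marker of astrocyte-like glia, had 3.54 CPM against 39.5 to 53.0 CPM, whereas *Eaat1*, a glial glutamate transporter, had 311 CPM, at 1.0 of the mean of the others. The 8 head fat body genes summed to 7091, 10605, 14240 and 14084 CPM in replicates 1 to 4, so replicates 3 and 4 were alike, and within the list the yolk protein genes *Yp1* and *Yp2* stood at 1.66 times the mean of the others in replicate 3 while *Yp3* stood at 0.619 and *fit* at 0.374. Whether these differences between libraries have a part in the low troponin and tropomyosin levels was not tested. Of the 10 eggshell genes of the ovary, 1 passed the minimum, and their sum lay between 7.21 and 25.6 CPM.

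The genes with the pattern most like that of the summed members over the 4 libraries, by the root mean square difference of log2 CPM after centring, were *CG30394* (0.0379), *CenG1A* (0.0406) and *sNPF* (0.0473). Of the 7746 other genes searched, 316 lay within 0.25, so the pattern was a common one. For *up*, which had the smallest coefficient, the closest were *spict* (0.0238), *Pkg21D* (0.0403) and *robo3* (0.0449), with 458 genes within 0.25. For *TpnC25D*, which had the largest coefficient of variation of the 8 genes in the fit to 7754 genes, they were *CG3397* (0.381), *Serinc* (0.450) and *CG10550* (0.460), and no gene lay within 0.25. *CG3397* had 53.8, 41.3, 2.51 and 71.3 CPM in replicates 1 to 4. Among the members, *Tm1* and *Tm2* were the closest pair, at 0.221, and *TpnC25D* and *TpnC73F* the farthest, at 2.6.

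The position of transcript ends bears on what 3′-seq can count. In the Ensembl annotation (release 115, on dm6), *TpnC25D* has 1 annotated end and a last exon of 127 nt, and its last 54 bp overlap the end of *tkv*, a gene on the opposite strand. *tkv* had 26, 5, 2 and 33 counts in replicates 1 to 4, few beside those of *TpnC25D*, and was also lowest in replicate 3. Whether the counting used strand is not given in the sources used here, so reads in the 54 bp could be assigned to either gene or to neither. *TpnC4* lies wholly within *Ugt50B3* on the opposite strand, which had 136, 136, 152 and 127 counts and no excess in replicate 1. *TpnC73F* has 1 annotated end, *TpnC41C* and *TpnC47D* have 2 each, *up* 2 over 103 bp, *wupA* 3 over 174 bp and *Tm2* 2 over 374 bp. *Tm1* has 18 transcripts with 9 ends spread over 13263 bp, so its count pools muscle and cytoplasmic forms that the table does not separate. The start of *Tm1* overlaps *l(3)neo43* on the opposite strand, and *CG45218*, with 2 counts in all, lies within it. The last exon is 108 to 298 nt long in *TpnC47D*, 168 to 1227 nt in *TpnC41C*, 212 nt in *TpnC4* and 426 nt in *TpnC73F*. The read length that the paper gives for the figure with its 3′-seq tracks exceeds the last exon of *TpnC25D* and the shorter one of *TpnC47D*. It is below those of *TpnC41C*, *TpnC4* and *TpnC73F*. Reads that cross into the exon before may thus be lost to unlike degrees, which was not tested. How alike the ends of the troponin C genes are in sequence was not examined here, so counts shared among paralogs cannot be told apart from their own.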

How the data were processed

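Polyadenylated RNA of adult wild-type heads was profiled by 3′-seq in 4 libraries of 1 group. The authors trimmed poly(A) stretches, mapped reads to dm6 with STAR 2.6.1b without introns and deposited raw counts per gene from featureCounts. The study names an Ensembl annotation for its RNA-seq without stating that it served these counts, and their strand setting and treatment of reads with several map positions are not given in the sources used here. Identifiers were matched to symbols for 13513 of 13608 genes. Levels are counts over the library total (CPM), and shares and ratios were taken within libraries. Dispersion was fitted with edgeR 4.0.16 in R 4.3.3 (TMM, intercept only, 10 or more counts in each library). The same fit was also run on simulated counts, with a lower count minimum and no library set apart as replicate 3 is. That run therefore does not test the setting used here. Alternatives were TMM, size factors of DESeq2 1.42.0, other minima, a pseudocount of 0.5 and leaving out each replicate. The remaining work was done in Python 3.11.15 with scipy 1.17.1 and pandas 2.3.3. Members, marker lists and neighbour lists were chosen with earlier results of these data known. From the neighbour lists the text names the 4 highest genes and any at 0 throughout, and as similar patterns the 3 closest genes. Others were named after their values were seen. No sequences were analysed here.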

Additional observations from a re-analysis of the deposited data

Results flagged for a closer look

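Of 50 values examined over the genes, shares, ratios and lists, 8 had a replicate past Dixon's 95% critical value for the gap to its nearest neighbour as a share of the range. Chance flags about 1 in 20, or 2.5 of 50, and the values are not independent, since many share the same genes. Replicate 1 lay far above the others for the level of *TpnC4* (36.8 CPM), the flight muscle list (296 CPM) and the midgut list (1056 CPM). Replicate 3 lay far below the others for the 6 actin genes (901 CPM), the share of *TpnC25D* in troponin C (46.5%) and the log2 ratio of *TpnC25D* to *TpnC47D* (0.48). It lay far above them for the shares of *TpnC47D* (33.3%) and *TpnC73F* (5.48%). All of these except the actin, midgut and flight muscle lists rest on the troponin C genes, and the 4 values of shares and ratio in replicate 3 describe the same 456 counts.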

How the results depend on the processing

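The ratios between replicates, the ratios to *Mhc* and the ratios among troponin C genes, of troponin C to troponin T and of actin to tropomyosin were chosen after seeing the data. So were the counts of genes lowest or under a cut in replicate 3, and of genes high in replicate 1. The other alternatives were planned. Leaving out one replicate turned the sign of the log2 ratio of summed troponin C to troponin T, which ranged from -0.24 without replicate 4 to 1.32 without replicate 3, and of muscle actin to tropomyosin, from -0.052 without replicate 4 to 0.13 without replicate 3. Relative to the other libraries, *TpnC47D* in replicate 1 went from 1.12 to 0.941 under TMM and 0.913 under DESeq2 size factors, and *TpnC73F* in replicate 3 from 0.855 to 1.05 and 1.11. The common coefficient of variation was 0.403, and 0.605 with genes at 0 in some replicates kept. Leaving out replicate 1 moved the mean of *TpnC4* from 10.4 to 1.56 CPM and that of *TpnC73F* from 3.22 to 2.14 CPM. Leaving out replicate 3 moved the mean shares of *TpnC47D* from 9.23% to 1.2%, of *TpnC73F* from 1.64% to 0.354% and of *TpnC4* from 2.0% to 1.28%. Mean levels of the 9 genes moved by less than 1 SD under both scalings. No paired analysis was possible because the libraries form a single group. Depth limits *TpnC73F* and, outside replicate 1, *TpnC4*.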
